A study of Homo sapiens with 8 samples.

Results

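The metallothioneins are small proteins rich in cysteine, and 7 of their genes were followed through the RNA sequencing of intestinal cell lines: MT2A, MT1E, MT1X, MT1F, MT1G, MT1M and MT1H. They were taken by symbol from a table of 54261 genes, in which 14 further rows carry a metallothionein symbol. The cysteines of these proteins hold zinc and copper and also bind cadmium. Their genes lie in a cluster and are switched on by metals through the zinc-sensing factor MTF1, which binds metal response elements in their promoters, and by glucocorticoids. In intestinal epithelium metallothioneins buffer zinc that has been taken up from food.

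The study sequenced total RNA, with ribosomal RNA removed, from lines kept in DMEM with serum. NCM460 and HIEC6 were untreated lines of normal intestinal epithelium (n = 2 lines), DLD1, HCT116 and HCT8 were untreated lines of colorectal cancer (CRC, n = 3 lines), and DLD1, HCT116 and HCT8 were sequenced again after hypoxia (n = 3 lines). The labels name no genetic change, and the duration and oxygen level of hypoxia are not given in the sources used here. Each line and condition was 1 library. Errors and p-values therefore measure how much cell lines of a group differ from each other. Where the cell line enters a fit as a block, they measure how much the difference between conditions varies among lines. Library totals lay between 45519306 and 57374239 counts, and levels are given as counts scaled to a total of 1e6 (CPM). A gene with 3 counts or fewer, which is 0.0523 to 0.0659 CPM, was treated as not measurable. Intervals printed with a level or a ratio are 95% intervals that cover counting error only.

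The library labelled NCM460 correlated across genes at 0.994 with untreated HCT116 and at 0.924 with HIEC6, the other normal line (Pearson r of log2(CPM + 1), a description). HIEC6 was mixed in its epithelial markers. It had 0.176 CPM of EPCAM and 3.03 CPM of CDH1, which encode epithelial adhesion proteins, 0.987 CPM of the keratin gene KRT19 and 1223 CPM of the mesenchymal marker VIM, where the remaining 7 libraries had at least 198 CPM of EPCAM and at most 20.6 CPM of VIM. The keratin genes KRT8 and KRT18 stood at 4290 and 3725 CPM in HIEC6, above NCM460 (1864 and 1574 CPM), and the 9 epithelial markers summed to 8020 CPM in HIEC6 and 5812 CPM in NCM460. Summed leukocyte markers reached at most 4.03 CPM and summed endothelial markers at most 13.1 CPM in any library. In the CRC lines every untreated library carries another run label than every hypoxia library, so run and treatment cannot be told apart.

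All 7 genes lie on chromosome 16. In the GENCODE annotation of GRCh37, MT2A occupies 56642496 to 56643409, MT1E 56659387 to 56661024, MT1M 56666571 to 56667893, MT1F 56691643 to 56694610, MT1G 56700642 to 56701977, MT1H 56703726 to 56705041 and MT1X 56716382 to 56718108. MT1G is on the minus strand and the other 6 are on the plus strand. The transcript used for each gene has 3 exons. It encodes 61 codons before the stop, 62 in MT1G, and 20 of them are cysteine codons in every member. Coding sequences of any pair of members were 88.7% to 93.7% identical over 21 pairs, so how reads with several matches were counted matters, and that is not given in the sources used here. The strand of counting is not given either. Cut into windows of 50 bases, 94.7% of the MT1E transcript, 93.9% of MT1F, 88.9% of MT2A, 85.4% of MT1M, 80.1% of MT1G and 79.6% of MT1H occurred in no other annotated gene, against 49.0% of MT1X. With windows of 100 bases the share was 100% for 5 members, 96.6% for MT1H and 78.0% for MT1X. By this measure the count of MT1X is the least certain. Its windows of 100 bases that recur do so in ENSG00000259827, a long non-coding RNA annotated over the same locus and strand and not analysed here. Shorter ones recur in other members and in pseudogenes, of which MT1XP1 held at most 11 counts in any library.

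The stretch before the start site is shown for the members that RefSeq's promoter table holds, because it carries the sites through which metals act on these genes. The 250 bases upstream of each start are printed 5′ to 3′ on the sense strand, with positions on GRCh38.p14, a newer build than that of the gene positions above. Capitals mark every match to the core of the metal response element, TGCACNC or TGCGCNC, on either strand, overlapping matches included. MT2A lies downstream of chr16:56608334-56608583, MT1X of chr16:56682220-56682469 and MT1H of chr16:56669564-56669813.
MT2A: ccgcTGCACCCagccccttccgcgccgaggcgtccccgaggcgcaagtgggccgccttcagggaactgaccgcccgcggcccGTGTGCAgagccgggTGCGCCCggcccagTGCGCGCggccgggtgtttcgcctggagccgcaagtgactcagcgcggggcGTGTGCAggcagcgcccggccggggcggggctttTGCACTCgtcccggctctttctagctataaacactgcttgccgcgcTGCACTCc
MT1X: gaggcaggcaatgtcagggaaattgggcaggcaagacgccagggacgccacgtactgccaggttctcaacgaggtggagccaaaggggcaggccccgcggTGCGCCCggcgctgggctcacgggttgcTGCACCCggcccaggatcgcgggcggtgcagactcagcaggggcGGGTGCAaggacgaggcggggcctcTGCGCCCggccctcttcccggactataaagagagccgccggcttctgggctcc
MT1H: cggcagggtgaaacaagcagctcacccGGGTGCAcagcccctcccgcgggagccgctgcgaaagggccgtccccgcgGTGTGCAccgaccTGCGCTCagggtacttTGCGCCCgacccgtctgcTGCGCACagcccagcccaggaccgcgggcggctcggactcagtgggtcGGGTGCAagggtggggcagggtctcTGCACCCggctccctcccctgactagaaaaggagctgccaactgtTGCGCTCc
MT2A held 7 matches, MT1X 4 and MT1H 8. Among 35116 promoters of the same length, 24.8% held at least 1 match and 0.370% held at least 4. The core of the hypoxia response element, ACGTG or GCGTG on either strand, occurred 1 time in MT2A, 1 time in MT1X and 0 times in MT1H, and at least 1 time in 43.2% of all promoters. MT1F, MT1G, MT1E and MT1M are the other members. A match describes letters only. Of these 3 promoters, that of MT1H held the most matches, and MT1H is the member without a measurable level in the counts below.

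The metallothionein genes differed in how many lines used them. MT2A, MT1E, MT1X and MT1F (4 of 7 members) were above 3 counts in all 8 libraries. MT1G and MT1M had more than 4 counts in HCT8 alone, with and without hypoxia, and MT1H had more than 2 nowhere.

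MT2A, which is expressed widely across tissues, had 4465 counts in NCM460 and 7952 in HIEC6, and 6240, 7768 and 6269 in DLD1, HCT116 and HCT8. In the same order of lines this is 90.8, 140.2, 121.8, 148.7 and 119.1 CPM. HCT116 and HIEC6 were the high lines and NCM460 the low one, and the normal and CRC lines overlapped. The neighbours HCT8 and DLD1 could not be separated, since their ratio of 0.977 had an interval from 0.943 to 1.01. MT1E had 2919, 3918, 6449, 5848 and 11398 counts in that order, or 59.3, 69.1, 125.9, 111.9 and 216.5 CPM. All 3 CRC lines stood above both normal lines, and HCT8 was 1.72 times DLD1 (1.67 to 1.77), the next line in order. MT1X had 436, 542, 1436, 873 and 2001 counts in the same order of lines, or 8.86, 9.56, 28.0, 16.7 and 38.0 CPM. The order of lines was that of MT1E, with HCT8 at the top, 1.36 times DLD1 (1.27 to 1.45), and with both normal lines at the bottom. The counting intervals of NCM460 (8.05 to 9.74 CPM) and HIEC6 (8.77 to 10.4 CPM) overlapped. MT1F was a minor member with 75, 35, 160, 109 and 661 counts, or 1.52, 0.617, 3.12, 2.09 and 12.6 CPM. HCT8 again led, at 4.02 times DLD1 (3.38 to 4.81), and HIEC6 was lowest.

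MT1G had 1838 counts in HCT8, which is 34.9 CPM, against 2 in NCM460, 0 in HIEC6, 4 in DLD1 and 0 in HCT116. HCT8 was at least 608-fold higher than HCT116 and at least 660-fold higher than HIEC6, taking 3 counts for each library at 0. Against DLD1 the ratio was 447, with an interval from 174 to 1642. MT1M had 516 counts in HCT8 (9.80 CPM), 1 in DLD1 and 0 in the other 3 untreated lines, at least 161-fold lower in NCM460. MT1H had 2 counts in HCT8 and 0 in the other 7 libraries, so it was not detectable at this depth. Of the 6 members with at least 10 counts in an untreated line, 2 (MT1G and MT1M) were at least 10-fold higher in HCT8 than in every other untreated line. Both reached 10 counts in HCT8 alone, so the count filter itself favoured this outcome. Of the 22925 genes of that abundance 0.585% met the rule, and no enrichment is drawn from these shares. Outside the 7, MT1A, which encodes another metallothionein, had 1208 counts in HCT8 and 0 in the other 4 untreated lines, and the pseudogene MT1L had 166 and 0. MT1L shares every window of 50 bases with another annotated gene, and its count is uncertain. MT3, the metallothionein of brain, had 14 counts in untreated HCT8 and 0 in the other 4 untreated lines. MT4 and MT1HL1 had 0 counts in all 8 libraries. MT1DP had at most 34 counts, and MT1B, MT1IP, MT1CP and MT1JP at most 4. The processed pseudogenes elsewhere in the genome, MT1P1, MT1P3, MT1XP1 and MT2P1, had at most 13.

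Along the chromosome the genes seen only in HCT8 did not all sit together. Counted from the start of MT2A, MT1L begins at 8.98 kb, MT1E at 16.9 kb, MT1M at 24.1 kb, MT1A at 30.1 kb, MT1F at 49.1 kb, MT1G at 58.1 kb, MT1H at 61.2 kb and MT1X at 73.9 kb. MT1M and MT1A thus lie between MT1E and MT1F, which every line expressed, and MT1G lies between MT1F and MT1X.

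**Figure D1:**
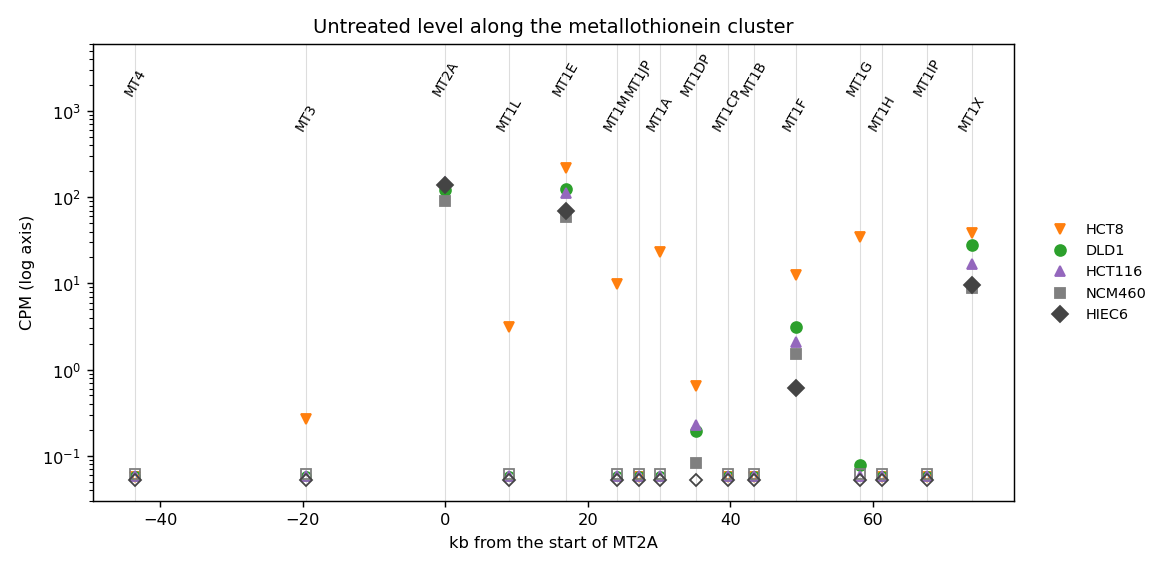
Untreated level of each metallothionein symbol of the chromosome 16 cluster, in CPM on a log axis, against distance in kb from the start of MT2A, with a symbol for each of the 5 untreated lines; open symbols are genes with 3 counts or fewer, drawn at 3 counts. MT2A, MT1E, MT1F and MT1X are filled for all 5 lines, while MT1L, MT1M and MT1A are filled for HCT8 alone and MT1G stands at 34.9 CPM in HCT8 against 0.0781 CPM in DLD1.

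Levels can be compared between members only per length of transcript. Per kb, MT2A had 226.4 CPM in NCM460 and 349.7 in HIEC6, and 303.8, 370.8 and 296.9 in DLD1, HCT116 and HCT8. MT1E, on its transcript of 704 bases, had 84.3, 98.1, 178.9, 159.0 and 307.5 CPM per kb. The annotation also has transcripts of 332 and 746 bases for MT1E, and on the shortest of them DLD1 came to 379.3 CPM per kb, above its MT2A. The order of MT2A and MT1E therefore depended on the transcript in untreated DLD1 and HCT8, whereas in HCT116, NCM460 and HIEC6 MT2A was higher per kb with each of the 3 transcripts. MT1X followed with 21.9 to 94.1 CPM per kb in the untreated lines. In HCT8, MT1G at 85.1 CPM per kb was just below MT1X, and MT1F at 29.5 and MT1M at 24.6 CPM per kb were below them.

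As shares of the counts of the 7 members, MT2A made up 56.5% in NCM460 (55.4 to 57.6) and 63.9% in HIEC6, 43.7% in DLD1 and 53.2% in HCT116, but 27.6% in HCT8 (27.1 to 28.2). MT1E ran the other way, with 37.0% in NCM460 and 31.5% in HIEC6, 45.1% in DLD1 and 40.1% in HCT116, and 50.2% in HCT8. These intervals are exact binomial ones. Shares within a library do not change with the scaling of the library. Under hypoxia HCT116 reached the highest MT2A share of the 8 libraries, 66.6%, and the lowest MT1E share, 14.6%.

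**Figure D2:**
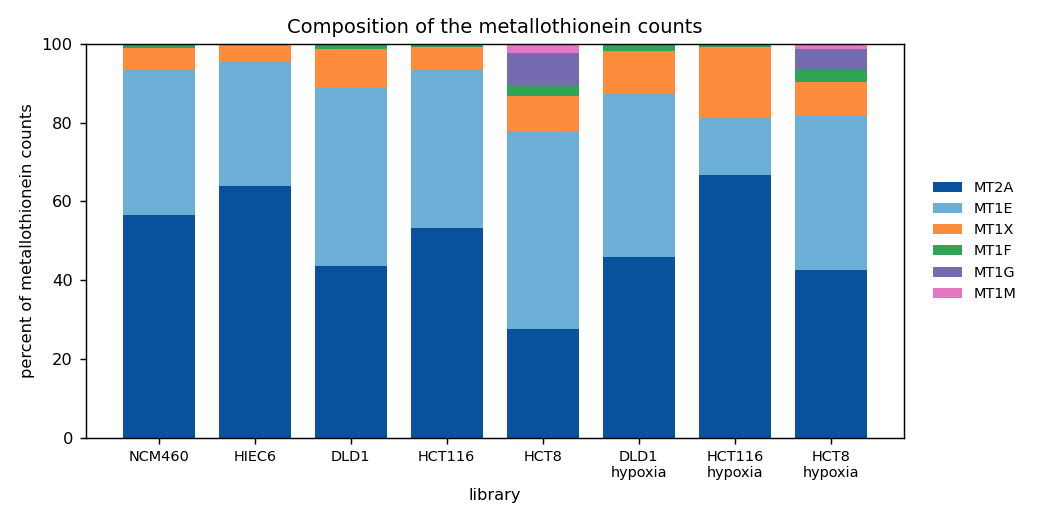
Percent of the counts of the 7 metallothioneins that fell on each member, stacked, in each of the 8 libraries; MT1H, with at most 2 counts, is too small to draw. HCT8 is the line with MT1G (8.10% untreated, 5.35% under hypoxia) and MT1M, and HCT116 under hypoxia is the library in which MT1X (18.0%) exceeds MT1E (14.6%).

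The first comparison asks whether CRC lines and normal lines differ. MT1E, MT1X and MT1F had higher means in the CRC lines, MT2A had a log2 fold change near 0, and 0 of the 4 members tested passed. For MT1E the CRC mean was 151.4 ± 56.7 CPM (SD, n = 3) and the normal mean 64.2 ± 6.89 CPM (SD, n = 2), with a log2 fold change of 1.02 (standard error 0.37). MT1X, of the metallothionein-1 group like MT1E, averaged 27.6 ± 10.7 and 9.21 ± 0.491 CPM, with a log2 fold change of 1.37 (standard error 0.47). MT1F averaged 5.92 ± 5.77 and 1.07 ± 0.642 CPM, with a log2 fold change of 2.25 (standard error 1.06), and without HCT8 it was 1.18. MT2A averaged 129.9 ± 16.4 and 115.5 ± 35.0 CPM, with a log2 fold change of -0.03 (standard error 0.36). After Benjamini-Hochberg adjustment over all genes, edgeR's quasi-likelihood test gave each of these 4 an adjusted p = 0.999, and it called 0% of 19964 genes and 0 of the 4 members tested. Without adjustment 542 genes had p under 0.05, MT1E and MT1X among them, and DESeq2 called 143 genes and 0 members.
MT1G, MT1M and MT1H did not pass the filter of 10 counts in 2 libraries. Every CRC line exceeded both normal lines for 3 of the 4 members tested, MT1E, MT1X and MT1F, and for 13.2% of all genes tested. Against untreated HCT116, which it resembles, the library labelled NCM460 had 0.530 times the MT1E level (0.507 to 0.554), 0.530 times the MT1X level (0.472 to 0.596) and 0.610 times the MT2A level (0.588 to 0.633). With that library left out, and HIEC6 as the lone normal line, the log2 fold changes were 0.85 for MT1E, 1.24 for MT1X and -0.37 for MT2A. Without HIEC6 they were 1.23, 1.51 and 0.42, so MT2A changed sign with the normal line kept.

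The sum of the 7 members was 160.5 CPM in NCM460 and 219.5 CPM in HIEC6, and 279.0, 279.4 and 430.8 CPM in DLD1, HCT116 and HCT8. Means were 329.8 ± 87.5 CPM for the CRC lines (SD, n = 3) and 190.0 ± 41.7 CPM for the normal ones (SD, n = 2), and the lines of the groups did not overlap. No test was run on the sum. DLD1 and HCT116 were nearly equal in the sum while they differed in its parts.

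**Figure D3:**
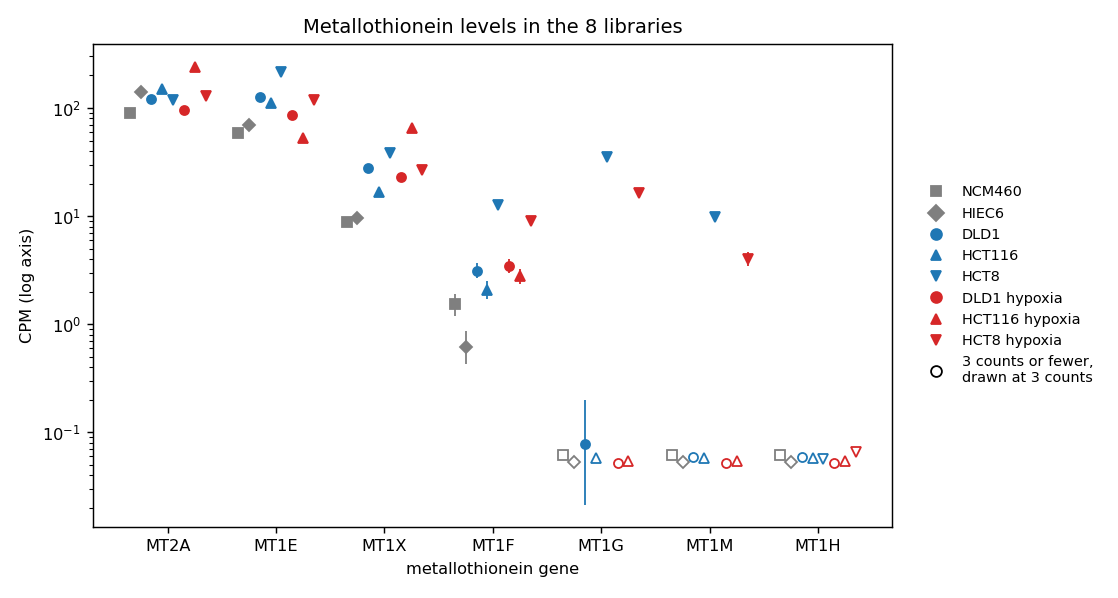
Level of each metallothionein in CPM on a log axis in the 8 libraries, grey for normal lines, blue for untreated CRC lines and red for hypoxia, with 95% counting intervals; open symbols are 3 counts or fewer, drawn at 3 counts. MT2A, MT1E, MT1X and MT1F are filled in all 8 libraries, MT1G and MT1M stand out in HCT8 with and without hypoxia, and MT1H is open throughout.

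The second comparison set the CRC lines under hypoxia against the same lines untreated. Hypoxia is sensed through factors that bind the hypoxia response element, and 10 of 11 genes listed for that response were higher in all 3 pairs on more than 3 counts in each pair, where 16.2% of the 21045 genes tested were higher in all 3 at any count. For the other gene, BNIP3, the HCT8 pair had 0 counts untreated and 1 under hypoxia. NDRG1, a hypoxia-induced gene, had a log2 fold change of 4.37 (standard error 0.35, edgeR adjusted p = 0.00462 with the cell line as a block). Cell type markers were compared as well. Of 9 mesenchymal markers 9 had a positive log2 fold change, with a median of 1.53 in the fit with the block. Of these, 1 passed with the block, FN1, which encodes fibronectin (2.80, edgeR adjusted p = 0.0295), and 1 of 9 epithelial markers did, KRT19 (1.56, edgeR adjusted p = 0.0115). The summed mesenchymal markers went from 14.4 to 99.5 CPM in DLD1, from 48.4 to 179.7 CPM in HCT116 and from 17.3 to 26.3 CPM in HCT8, and their part in the metallothionein values was not tested.
The metallothioneins did not move together. MT1E was lower in every line, MT1X was higher in HCT116 alone, MT2A was higher in HCT116 and slightly so in HCT8, and MT1G and MT1M were lower in HCT8. By edgeR 0 members passed.

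MT1E went from 125.9 to 86.5 CPM in DLD1, from 111.9 to 52.8 CPM in HCT116 and from 216.5 to 119.8 CPM in HCT8, on 2927 to 11398 counts. The log2 differences were -0.54 (-0.59 to -0.49), -1.08 (-1.15 to -1.02) and -0.85 (-0.90 to -0.81). Hypoxia was the lower library of each pair although the levels of the treated and untreated lines overlapped, since HCT8 under hypoxia was above untreated HCT116. MT1E was the only 1 of the 6 members tested that was lower in all 3 pairs, and 26.4% of all genes tested were. Without a block the log2 fold change was -0.71 (standard error 0.31, edgeR adjusted p = 0.9999), with 0% of genes called and 0 of 6 members, while 607 genes had an unadjusted p under 0.05. With the line as a block it was -0.69 (standard error 0.17, edgeR adjusted p = 0.103), with 200 genes called (0.95%) and again 0 members. DESeq2 with the same block, chosen after the data were seen, gave -0.67 with an adjusted p = 0.00658, and it called 7.92% of genes and 1 of the 6 members, MT1E. Whether MT1E passed thus depended on the tool.

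MT1X had 1436 counts in DLD1 and 1313 under hypoxia, 873 and 3604 in HCT116, and 2001 and 1204 in HCT8. In CPM it went from 28.0 to 22.9, from 16.7 to 65.1 and from 38.0 to 26.4. Under hypoxia the level was 3.89 times the untreated level in HCT116 (3.61 to 4.20) and lower in the other lines, with log2 differences of -0.29 (-0.40 to -0.18) in DLD1, 1.96 (1.85 to 2.07) in HCT116 and -0.52 (-0.63 to -0.42) in HCT8. The fitted log2 fold change was 0.75 (standard error 0.61) and 0.46 (standard error 0.51) with the block, with edgeR adjusted p = 0.9999 and adjusted p = 0.682. Without the block it became -0.18 when HCT116 under hypoxia was left out, so the positive unblocked value rested on that library.

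MT2A went from 121.8 to 95.5 CPM in DLD1, from 148.7 to 241.0 CPM in HCT116 and from 119.1 to 129.7 CPM in HCT8. The log2 differences were -0.35 (-0.40 to -0.30), 0.70 (0.66 to 0.74) and 0.12 (0.07 to 0.18), with a fitted value of 0.48 (standard error 0.49) and of 0.29 (standard error 0.26) with the block. Neither passed (edgeR adjusted p = 0.9999 and adjusted p = 0.606), and without HCT116 under hypoxia the unblocked value was -0.27. HCT116 again had the largest positive difference of the 3 lines, and DLD1 was lower. MT1F went from 3.12 to 3.45 CPM in DLD1, from 2.09 to 2.76 in HCT116 and from 12.6 to 9.03 in HCT8. Its log2 differences were 0.14 (-0.16 to 0.45), 0.40 (0.04 to 0.77) and -0.48 (-0.66 to -0.30), and the fitted value was -0.11 without the block and 0.15 with it (edgeR adjusted p = 0.859).

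MT1G went from 1838 to 743 counts in the HCT8 pair and MT1M from 516 to 183. The levels went from 34.9 to 16.3 CPM and from 9.80 to 4.02 CPM, with log2 differences of -1.10 (-1.22 to -0.97) and -1.29 (-1.54 to -1.04). In the DLD1 and HCT116 pairs both genes had at most 4 counts, so that the fits rest on HCT8 alone, and they did not pass with the block (edgeR adjusted p = 0.224 for MT1G and adjusted p = 0.349 for MT1M). MT1A, outside the 7, went from 1208 to 321 counts in the same line, a log2 difference of -1.70, and MT1L from 166 to 89 counts. Both members were at least 2-fold lower in the HCT8 pair, which makes 2 of the 6 members tested where 10.2% of all genes tested were. In the HCT116 pair 1 of 6 members, MT1X, was at least 2-fold higher, against 11.5% of genes, and 1 of 6, MT1E, at least 2-fold lower, against 25.7%. With TMM scaling these counts changed to 2 of 6 higher, MT1X and MT2A, against 16.3% of genes, and 0 of 6 lower, against 17.1%.

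**Figure D4:**
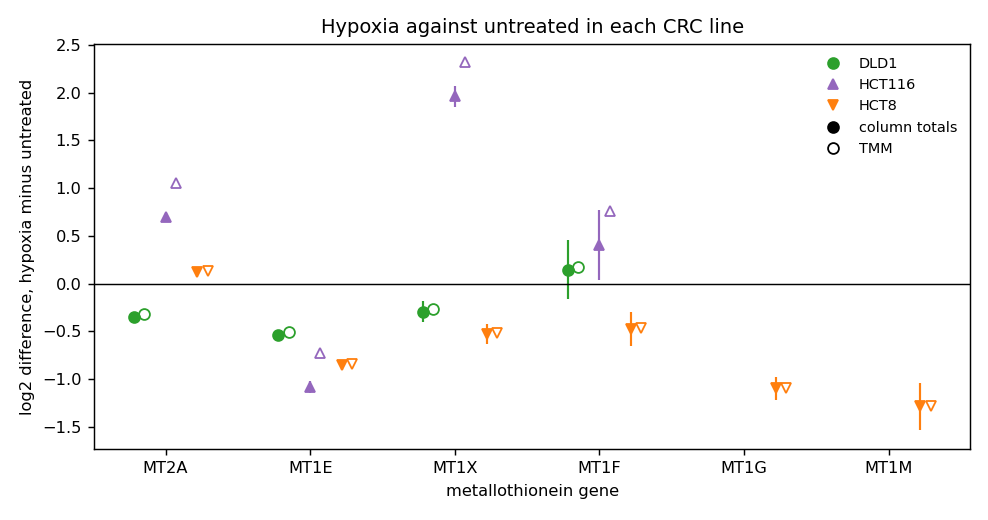
Log2 difference between hypoxia and untreated for 6 metallothioneins in each CRC line, by library total with 95% counting intervals (filled) and with TMM scaling (open); pairs with fewer than 10 counts in both libraries are not drawn. MT1E is below 0 in all 3 lines, MT1X and MT2A are above 0 in HCT116 (1.96 and 0.70), and MT1G and MT1M appear for HCT8 alone.

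The HCT116 pair stood apart from the others in scale. TMM scaling moved every gene in that pair by 0.36 on the log2 scale, compared with 0.03 in DLD1 and 0.009 in HCT8, and the median log2 difference of all genes tested in it was -0.22. With TMM the HCT116 differences were 2.32 for MT1X, 1.05 for MT2A, 0.76 for MT1F and -0.73 for MT1E, all of the same sign as by library total. Untreated and hypoxia libraries correlated at 0.980 across genes in HCT116, 0.994 in DLD1 and 0.989 in HCT8. Hypoxia libraries of DLD1 and HCT116 carry a second run label that HCT8 under hypoxia lacks. The part of these differences in the metallothionein values was not tested.

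Ratios between members within a library are free of such scaling. MT1X counts were 0.223 times those of MT1E in untreated DLD1 and 0.265 times under hypoxia, 0.149 and 1.23 times in HCT116, and 0.176 and 0.221 times in HCT8. In HCT116 the ratio was 8.25-fold higher under hypoxia, and in DLD1 and HCT8 it was 1.19-fold and 1.26-fold higher. MT2A counts went from 0.968 to 1.10 times MT1E in DLD1, from 1.33 to 4.56 times in HCT116 and from 0.550 to 1.08 times in HCT8. Both ratios were higher in all 3 lines, by an amount that varied widely among them, and both have in their denominator MT1E, which was lower in every pair. The ratio of MT1X to MT2A went both ways, 1.04-fold in DLD1, 2.40-fold in HCT116 and 0.639-fold in HCT8. These ratios were chosen after the values were seen. An exact two-sided paired permutation test gave p = 0.25 for both ratios to MT1E and p = 0.75 for MT1X to MT2A. With 3 pairs this test cannot go below 0.25, so it decides nothing.

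The sum of the 7 members went from 279.0 to 208.4 CPM in DLD1, from 279.4 to 361.7 CPM in HCT116 and from 430.8 to 305.3 CPM in HCT8. The log2 differences were -0.42, 0.37 and -0.50, with a median of -0.42 and no test. Without DLD1 the median was -0.06 and without HCT8 it was -0.02, so it rested on those lines. In HCT116 the sum was higher. Without MT2A its log2 difference there was -0.12 by library total but 0.24 with TMM and 0.30 with upper-quartile scaling, so its sign depended on the scaling.

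Among the genes that control zinc, MTF1, the factor that binds the metal response element, had 40.97 CPM in DLD1, 47.5 in HCT116 and 45.1 in HCT8 and 37.1, 47.8 and 47.9 CPM under hypoxia. On the scale of log2(CPM + 0.5) its differences were -0.14, 0.01 and 0.09, and it did not pass in either fit. SLC30A1, which exports zinc across the plasma membrane and is itself a target of MTF1, went from 23.7 to 22.5, from 18.2 to 35.6 and from 30.7 to 22.5 CPM. Its differences were -0.07 in DLD1, on 1212 and 1294 counts and near 0, 0.95 in HCT116 and -0.44 in HCT8. Like MT1X it was higher in HCT116 and lower in HCT8, and a link between them was not tested. Of 8 zinc exporters tested 0 passed with or without the block, and their mean differences over the pairs ran from -0.68 (SLC30A6) to 0.15 (SLC30A1), with SLC30A7, a transporter of the secretory pathway, at -0.60. The median over the list was -0.28, beside -0.06 over all genes tested.
Of 12 zinc importers tested 0 passed, and the median was -0.03. SLC39A10 was higher in all 3 pairs (0.33, 0.64 and 0.79). SLC39A5 had the next mean at 0.09, on at most 20 counts in any library, so that value is uncertain. SLC39A14 (-0.90, -0.55 and -1.08) and SLC39A3 (-0.36, -2.35 and -0.92) were lower in all 3 pairs. For the 6 members tested the median on the same scale was -0.20, with MT1E lowest at -0.82 and MT1X highest at 0.38. The means of MT1G and MT1M, both -0.41, join -1.07 and -1.19 in HCT8 with values from -0.16 to 0 in DLD1 and HCT116. Those 2 lines had at most 4 counts of either gene, so the median and the lowest place depend on counting them.

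**Figure D5:**
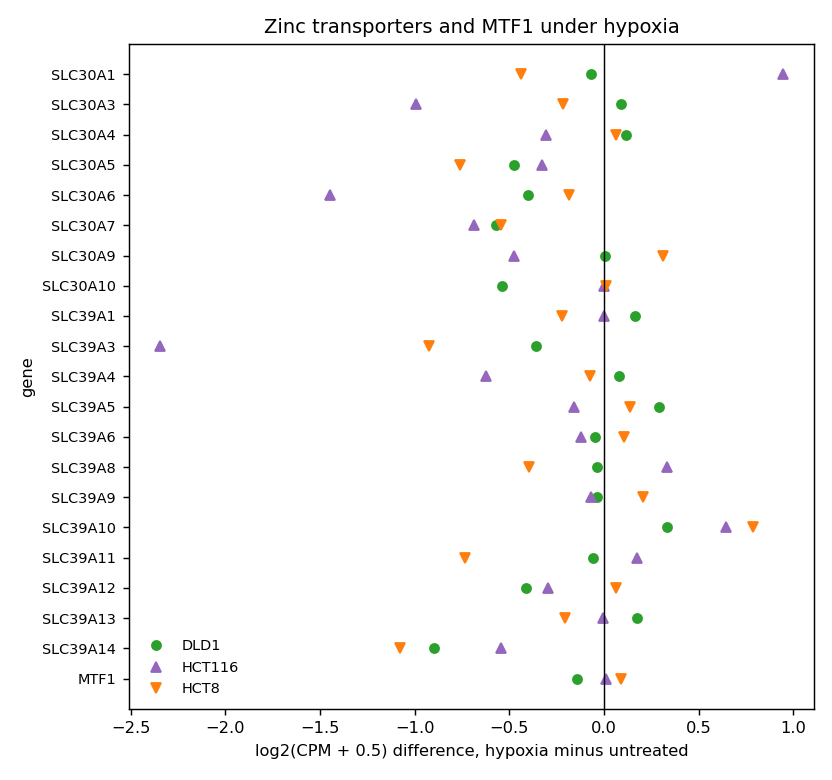
Difference in log2(CPM + 0.5) between hypoxia and untreated in each CRC line for 8 zinc exporters (SLC30), 12 zinc importers (SLC39) and MTF1. SLC30A1 is at 0.95 in HCT116, -0.07 in DLD1 and -0.44 in HCT8, MTF1 lies between -0.14 and 0.09, and SLC39A14 is below 0 in all 3 lines.

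The genes that flank the cluster were examined as well. Of 7 neighbours tested 0 passed in either fit, and their median difference was -0.48. OGFOD1 on the MT4 side and NLRC5, a regulator of MHC class I genes, on the other side had the lowest means, with -1.40 and -1.33 in the HCT116 pair, and both were lower in all 3 pairs. BBS2 had a mean of 0.26 and HERPUD1 of 0.23. A lower level under hypoxia in every line was thus found within the cluster for MT1E and, on at most 34 counts, for MT1DP, and for 5 of the 7 neighbours, beside the 26.4% of all genes.

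The genes most alike in pattern to the summed metallothioneins over the 8 libraries were SCMH1 (Pearson r of 0.969 on log2(CPM + 1)), NUCB2 (0.839), CCDC9 (0.824), CDK6 (0.788) and NUP58 (0.788). They were the top of 11520 genes with a mean of at least 5 CPM. SCMH1 had 18.0 CPM in NCM460 and 23.7 CPM in HIEC6. In DLD1 it went from 25.5 to 23.3 CPM under hypoxia, in HCT116 from 26.8 to 28.5 CPM and in HCT8 from 33.0 to 26.3 CPM. The 8 libraries include pairs of the same line, so these values are a description and no test.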

How the data were processed

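The authors aligned clean reads and deposited 1 table of raw read counts per gene, without normalization, for 8 libraries (0 columns were left aside). Per the labels, the processing used HISAT2 2.0.4 and GRCh38, whereas the methods name GRCh37. The file holds no coordinates, so the build does not enter the values. The counter and its annotation are not given in the sources used here. CPM values were computed from column totals. A gene entered a fit if it reached 10 counts in 2 or more of its libraries, and was tested with edgeR 4.0.16 (quasi-likelihood, TMM, Benjamini-Hochberg adjustment, threshold 0.05) in R 4.3.3. The standard error is the log2 fold change over the root of the F statistic. Ratios have exact conditional binomial intervals. In the hypoxia comparison the replicate number is the cell line and so pairs the libraries: deviations from the group means correlated at 0.836, 0.857 and 0.820 within lines and at -0.611 to -0.060 between lines. For the normal lines the shared numbers pair nothing.

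Alternatives were DESeq2 1.42.0, limma-trend (limma 3.58.1), upper-quartile scaling, other filters, all 8 libraries in 1 fit, the replicate block and each library left out. DESeq2 and upper-quartile scaling with the block were added after seeing the data. The procedure was tested on simulated data. The members, the gene lists and the rule for named genes were chosen with earlier results of these data known. Named genes were all metallothionein symbols, from each list other than the cell type markers the 2 largest rises and 2 largest falls in mean log2 difference over the pairs (genes with a mean below 0 are not given as rises), MTF1, SLC30A1, and the 5 genes most alike in pattern. The cell type markers and BNIP3 that are named were chosen after their values were seen. The p-values measure the spread between lines, or with the cell line as a block the spread of the hypoxia difference among lines. Each line and condition was sampled 1 time. Positions come from GENCODE 44 on GRCh37, promoters from RefSeq on GRCh38.p14, whose table held 3 of the 7 members.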

Additional observations from a re-analysis of the deposited data

Results flagged for a closer look

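In 3 metallothioneins the hypoxia pairs of different lines moved in opposite directions, with counting intervals clear of 0 and the same sign under library totals, TMM and upper-quartile scaling. The difference between lines was not tested, since each line has 1 library per condition. MT1X had a log2 difference of -0.29 in DLD1, 1.96 in HCT116 and -0.52 in HCT8. MT2A had -0.35 in DLD1, 0.70 in HCT116 and 0.12 in HCT8. MT1F had 0.40 in HCT116 and -0.48 in HCT8.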

How the results depend on the processing

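With 1 library per line and condition, depth limits MT1G and MT1M outside HCT8, and MT1H in every library. In the hypoxia comparison edgeR called 0 genes, DESeq2 55, the replicate block that pairs the libraries of a line 200, upper-quartile scaling with the block 215 and DESeq2 with the block 1666, and the cause of this spread was not tested. DESeq2 with the block called 1 metallothionein and every other alternative 0, and each fit that left out a library called 0 genes. Those fits had no block and kept the partner of the library left out. As the full fit without the block called 0 genes too, their counts decide nothing. The fit with the block was not repeated with a library left out. Between CRC and normal lines DESeq2 called 143 genes and the others, the replicate block included, 0, and no setting called a metallothionein. Under hypoxia MT1F, at -0.11, was positive with limma-trend (0.15), with the block (0.15), with DESeq2 and the block (0.17) and with upper-quartile scaling and the block (0.19), and lay between -0.63 and 0.96 with a library left out. MT1X lay between -0.18 and 1.06 and MT2A between -0.27 and 0.78 with a library left out, both lowest without HCT116 under hypoxia. Between CRC and normal lines MT2A, at -0.03, was positive with upper-quartile scaling (0.081), limma-trend (0.0082) and the replicate block (0.12), and lay between -0.37 and 0.42 with a library left out. Without MT2A the mean of the sum was 199.9 CPM in CRC lines and 74.5 CPM in normal lines. The median hypoxia difference of the sum, -0.42, lay between -0.46 and -0.02 with a line left out, nearest 0 without HCT8 (-0.02) or DLD1 (-0.06), and between -0.48 and -0.38 under the other scalings and gene sets.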

Other observations

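Other genes tied to metals, oxidants and glucocorticoids were measured beside the metallothioneins, on the scale of log2(CPM + 0.5) and as the mean over the 3 hypoxia pairs. Of 10 copper genes 0 passed with or without the block. ATP7A, which pumps copper out of the cytosol, had 0.60 and the copper importer SLC31A1 0.25, both higher in all 3 pairs, and SCO1 and SCO2, which deliver copper to cytochrome c oxidase, had -1.02 and -0.67. Of 7 metal and oxidant stress genes 0 passed. HMOX1, which degrades heme, had 0.03, and SRXN1, which repairs peroxiredoxins, had -0.80, while HSPA1B had -0.74.

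Of 7 glucocorticoid-responsive genes tested, 0 passed without the block and 1 passed with it. That gene was PER1, a clock gene, with a log2 fold change of 1.96 (edgeR adjusted p = 0.0443). DUSP1 had differences of 0.13 in DLD1, 3.82 in HCT116 and -0.05 in HCT8. A link to MT1X, which also had its largest difference in HCT116, was not tested. FKBP5 had a mean of -0.85 and SGK1 of -0.82, both lower in all 3 pairs, with -1.19 and -1.01 in HCT116. Of the hypoxia response list, ANKRD37 had the largest mean, 4.46, followed by NDRG1 with 4.21.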
